A study of Mus musculus with 9 samples.

Results

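The 4 genes Stra8, Meioc, Ythdc2 and Rbm46 act in meiotic initiation and were taken by name from the 46078 genes counted in this series. The libraries came from EGFP-SSCs, a wild-type (WT) mouse spermatogonial stem cell (SSC) line that carries a green fluorescent protein. All 9 libraries therefore share 1 line. The labels call them biological replicates and give 3 to each time point, 0 h, 24 h and 48 h, and p-values measure the spread between these libraries. The 0 h cells were in normal culture, on feeder fibroblasts treated with mitomycin C, in StemPro-34 medium with glial cell line-derived neurotrophic factor, epidermal growth factor and basic fibroblast growth factor. The 24 h and 48 h cells were mixed 1:1 with somatic cells from testes of busulfan-exposed mice aged 3 to 7 days postpartum. Their medium was α-MEM with KSR, BMP-4, BMP-7, retinoic acid, activin A, testosterone, FSH and BPE, and EGFP-positive cells were sorted before RNA extraction. The paper describes flow sorting of SSCs from different culture stages and does not name 0 h apart. The change of medium, the somatic cells and the time in culture came together, so their parts in any difference from 0 h cannot be told apart. In such bulk libraries, fewer cells with a transcript and less of it per cell cannot be told apart either.

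Germ cells leave mitosis for meiosis on a retinoic acid signal, received by retinoic acid receptors on DNA. STRA8 is a transcription factor that this signal switches on, and with its partner MEIOSIN it raises transcription of meiotic genes. MEIOC, the RNA helicase YTHDC2 and the RNA-binding protein RBM46 work after transcription, as a complex that lowers mitotic transcripts such as cyclin A2 so that meiotic prophase can hold. YTHDC2 also carries a domain that recognises N6-methyladenosine (m6A), a methyl mark on RNA. In the testis, Stra8 is known to appear already in differentiating spermatogonia, before the meiotic prophase in which the other proteins are needed.

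Stra8 (ENSMUSG00000029848) lies on the plus strand of chromosome 6, at 34920163 to 34939344 of GRCm38, with 10 exons in its longest transcript in GENCODE M21. Meioc (ENSMUSG00000051455) lies on the plus strand of chromosome 11, at 102663716 to 102682237, with 8 exons. Rbm46 (ENSMUSG00000033882) lies on the minus strand of chromosome 3, at 82837228 to 82876483, with 5 exons. The RefSeq sequences before their start sites (GRCm38.p6) are shown because Stra8 took another course than the other members. In the 250 bases before the start, both strands were searched for 4 motifs that are known from promoters of this kind. These were AGGTCA, the element that each retinoic acid receptor contacts, CNCCTCAG, the motif of STRA8, CACGTG, an E-box, and CCAAT, the last of which was added after the sequences had been seen. Capitals mark the matches. For Stra8, the 30 bases around each of its 2 AGGTCA matches are given, at chr6:34920742-34920771 and chr6:34920898-34920927, both inside an exon of another annotated Stra8 transcript. For Meioc (chr11:102665335-102665584) and Rbm46 (chr3:82876484-82876733) the whole window is given, on the strand of the gene.
Stra8, 194 to 189 bases before the start: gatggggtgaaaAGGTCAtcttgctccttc
Stra8, 38 to 33 bases before the start: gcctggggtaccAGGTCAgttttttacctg
Rbm46: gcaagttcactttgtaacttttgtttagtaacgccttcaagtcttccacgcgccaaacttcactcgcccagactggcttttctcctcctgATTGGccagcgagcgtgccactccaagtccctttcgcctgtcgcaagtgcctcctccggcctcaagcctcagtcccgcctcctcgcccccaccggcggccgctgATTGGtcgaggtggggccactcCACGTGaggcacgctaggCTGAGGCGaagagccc
Meioc: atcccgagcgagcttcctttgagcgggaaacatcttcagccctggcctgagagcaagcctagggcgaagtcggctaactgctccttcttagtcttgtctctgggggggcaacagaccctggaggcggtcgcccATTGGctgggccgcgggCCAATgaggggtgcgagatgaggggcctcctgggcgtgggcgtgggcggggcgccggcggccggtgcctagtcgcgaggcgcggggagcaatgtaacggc

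Of the 3 windows, that of Stra8 held AGGTCA, with 2 matches, while 14.0% of 32851 RefSeq windows of the same length held at least 1 match and 1.36% held 2 or more. The STRA8 motif and the E-box were matched in the Rbm46 window, 16 to 9 and 34 to 29 bases before the start, and 6.4% and 6.0% of all windows held them. CCAAT or its reverse ATTGG was matched 4 times for Stra8 and 2 times each for Meioc and Rbm46, and 10.09% of all windows held it 2 or more times. The first bases of the Rbm46 window lie in Rbm46os, an antisense gene on the other strand. These matches describe the letters and say nothing of whether a factor was bound.

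To place the 4 genes against each other, counts relative to the library total (CPM) were divided by gene length to give FPKM. At 0 h the mean level was 20.8 ± 7.58 FPKM (SD, n = 3) for Rbm46, 11.4 ± 8.15 for Meioc, 3.83 ± 2.29 for Ythdc2 and 1.43 ± 0.332 for Stra8. Each of the 3 libraries of 0 h gave this order, although the ranges of neighbouring genes overlapped. At 24 h Stra8 stood at 507 ± 30.9 FPKM, above Rbm46 at 39.8 ± 1.85, Meioc at 5.66 ± 1.30 and Ythdc2 at 3.75 ± 0.594. At 48 h the levels were 269 ± 13.0 FPKM for Stra8, 47.4 ± 6.34 for Rbm46, 9.45 ± 3.30 for Meioc and 6.01 ± 1.37 for Ythdc2. At both times the ranges of Meioc and Ythdc2 overlapped, and those of Stra8 and Rbm46 stood apart from the other genes. The lowest of the 4 genes before co-culture was thus the highest of them at both later times.

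**Figure D1:**
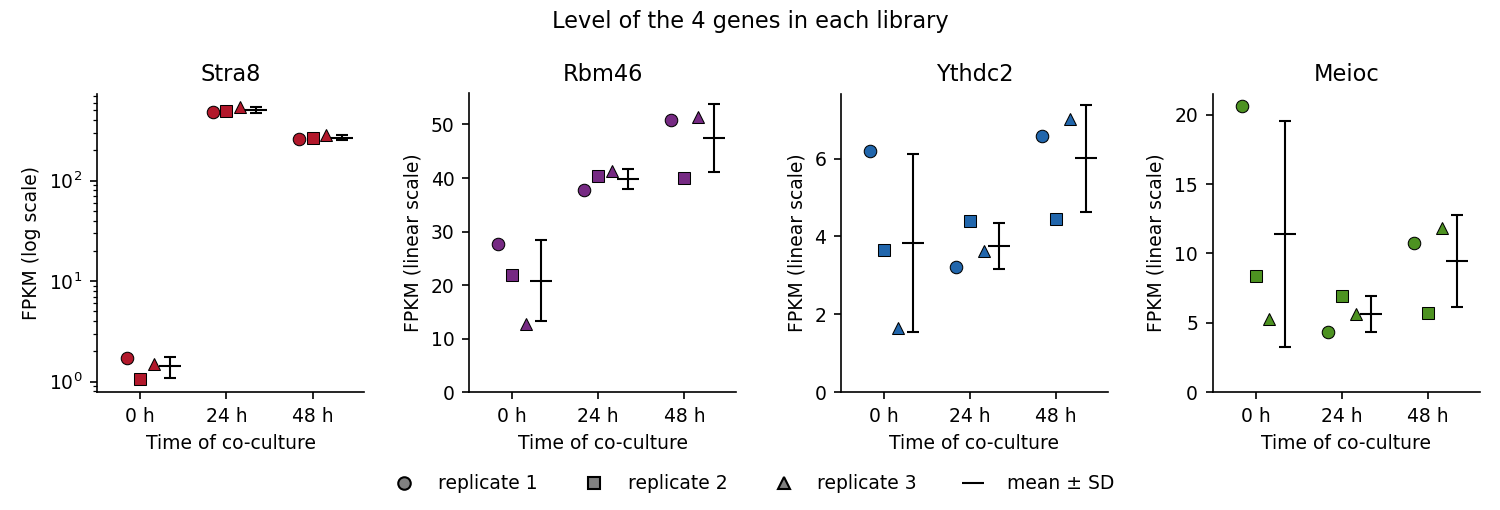
Level of Stra8, Rbm46, Ythdc2 and Meioc in each of the 9 libraries in FPKM, against the time of co-culture, with a log axis for Stra8 and linear axes from 0 for the other genes. Points are libraries and the bar is the mean ± SD of 3. Stra8 sat near 1.43 FPKM at 0 h and near 507 and 269 at 24 h and 48 h, the Rbm46 libraries of 0 h lay below those of both later times, the Ythdc2 libraries of 0 h spanned those of 24 h, and the lowest Meioc library was 1 of 24 h, at 4.36 FPKM against 5.25 for the lowest of 0 h.

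Stra8 rose most. Its counts were 50, 39 and 54 before co-culture, 17634, 16791 and 19953 after 24 h, and 8856, 11085 and 10078 after 48 h. In CPM, it ran from 1.94 to 3.12 at 0 h, from 866 to 975 at 24 h and from 464 to 511 at 48 h, so no pair of time points overlapped. By FPKM, Stra8 ranked between 12239 and 13575 of 45229 genes at 0 h, between 53 and 61 at 24 h, and between 110 and 123 at 48 h. The log2 fold change was 8.48 (standard error 0.21, adjusted p = 2.68e-06 in the quasi-likelihood test of edgeR) at 24 h and 7.56 (standard error 0.21, adjusted p = 4.17e-06) at 48 h, or 358-fold and 189-fold. From 24 h to 48 h Stra8 fell by 0.92 on the log2 scale (standard error 0.07, adjusted p = 0.000125), and each 48 h library lay below each 24 h library. The highest Stra8 level was thus measured at 24 h.

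Meiosin, the partner that STRA8 needs on meiotic promoters (listed as Gm4969), was low throughout and moved on another course. It had 20, 46 and 52 counts before co-culture, 105, 104 and 84 after 24 h, and 165, 199 and 147 after 48 h. Its level was 2.04 ± 0.704 CPM (SD, n = 3) before co-culture and rose to 4.94 ± 0.753 after 24 h (log2 fold change 1.28, adjusted p = 0.0194) and to 8.25 ± 0.694 after 48 h (log2 fold change 2.00, adjusted p = 0.00171). The call for Meiosin at 24 h held in 11 of 15 alternatives (1.03 to 1.50) and that at 48 h in 15 of 15. It was higher at 48 h than at 24 h by 0.73 on the log2 scale (adjusted p = 0.0125), over the interval in which Stra8 fell. No pair of time points overlapped in either gene.

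RBM46, an RNA-binding protein of the germ line that is known to associate with the MEIOC and YTHDC2 complex, was the other member that rose from 0 h. Rbm46 stood at 69.2, 54.9 and 31.7 CPM in replicates 1, 2 and 3 of 0 h. Replicates of 24 h held 94.4, 100.7 and 103.4 CPM, and replicates of 48 h held 126.9, 100.2 and 128.3 CPM. All 6 co-culture libraries lay above all 0 h libraries, and the ranges of 24 h and 48 h overlapped. The log2 fold change was 0.95 (standard error 0.26, adjusted p = 0.0332) at 24 h and 1.19 (standard error 0.27, adjusted p = 0.01495) at 48 h. The difference of 0.24 between 48 h and 24 h did not pass the test (standard error 0.10, adjusted p = 0.109). Leaving out 1 library ended the call in 4 of 6 fits at 24 h, without 0 h replicate 2 or any 24 h replicate, and in 3 of 6 at 48 h, without 0 h replicate 2 or 48 h replicate 1 or 3. The log2 fold change stayed between 0.72 and 1.22 at 24 h and between 0.96 and 1.45 at 48 h.

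At 24 h and again at 48 h, 2 of the 4 genes, Stra8 and Rbm46, passed the test as higher than at 0 h, beside 11.4% of 17592 genes tested at 24 h and 13.0% of 17755 at 48 h. Between 24 h and 48 h, 1 of the 4 passed as higher, Ythdc2, beside 8.61% of 17499 genes, and 1 as lower, Stra8, beside 12.7%. All 4 genes had passed the filter on low counts in each comparison. The 4 genes were not drawn at random, so these counts are a description.

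Ythdc2 codes for the RNA helicase of the complex. Its gene (ENSMUSG00000034653) lies on the plus strand of chromosome 18, at 44827746 to 44889724, with 30 exons. Replicates 1, 2 and 3 held 55.1, 32.4 and 14.6 CPM before co-culture, 28.6, 39.0 and 32.1 CPM after 24 h, and 58.4, 39.4 and 62.2 CPM after 48 h. The lowest of all 9 values was at 0 h, and another 0 h value lay above every 24 h value. Against 0 h, the log2 fold change was -0.02 (standard error 0.42, adjusted p = 0.980) at 24 h and 0.65 (standard error 0.44, adjusted p = 0.310) at 48 h, and neither passed. Against 24 h, Ythdc2 rose at 48 h by 0.67 on the log2 scale (standard error 0.17, adjusted p = 0.0232), with 39.0 CPM as the highest 24 h value and 39.4 as the lowest 48 h value. This call was lost in 4 of 6 fits that left out 1 library (without 24 h replicate 1 or 3, or 48 h replicate 1 or 3) and with all 9 libraries in 1 fit (log2 fold change 0.68, adjusted p = 0.357).

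MEIOC, a germ cell protein that binds YTHDC2, is needed for the long meiotic prophase. Meioc had 1529, 780 and 486 counts before co-culture, 410, 600 and 534 after 24 h, and 950, 604 and 1081 after 48 h. These made 95.4, 38.7 and 24.2 CPM, then 20.1, 32.1 and 26.1 CPM, then 49.8, 26.3 and 54.8 CPM. The highest 0 h library lay 3.94 times above the lowest, and the ranges of all 3 groups overlapped. The log2 fold change was -1.01 (standard error 0.47, adjusted p = 0.169) at 24 h, -0.28 (standard error 0.51, adjusted p = 0.720) at 48 h and 0.73 (standard error 0.26, adjusted p = 0.0706) from 24 h to 48 h. None of these differences passed at 0.05 in edgeR, while 1 of 3 had an unadjusted p under 0.05, and DESeq2 passed 0 of 3. The value at 24 h was -0.25 (adjusted p = 0.475) without 0 h replicate 1 and -1.32 (adjusted p = 0.0243) without 0 h replicate 3. At 48 h the sign turned without 0 h replicate 1, to 0.47 (adjusted p = 0.290).

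The spread of Meioc, Ythdc2 and Rbm46 at 0 h went along with the base composition of transcripts. The share of G and C in the longest transcript was 38.4% for Rbm46, 38.5% for Meioc, 42.0% for Ythdc2 and 50.9% for Stra8, against a median of 49.8% over the genes expressed. Of those genes, 3.2% had a lower share than Meioc or Rbm46, 12.0% a lower share than Ythdc2 and 56.0% a lower share than Stra8. The 1817 genes with the lowest share deviated from their 0 h mean by a median of 0.55, 0.03 and -0.57 on the log2 scale in replicates 1, 2 and 3. In the same libraries Meioc deviated by 1.09, -0.21 and -0.88, Ythdc2 by 0.89, 0.13 and -1.02, Rbm46 by 0.49, 0.15 and -0.64, and Stra8 by 0.29, -0.37 and 0.08. Replicate 1 was thus high and replicate 3 low for the 3 genes poor in G and C, and Stra8 did not share this order. At 48 h, replicate 2 was the low library for those 3 genes, and the 1817 genes stood at -0.20 there, against 0.07 and 0.15 in the other libraries.

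**Figure D2:**
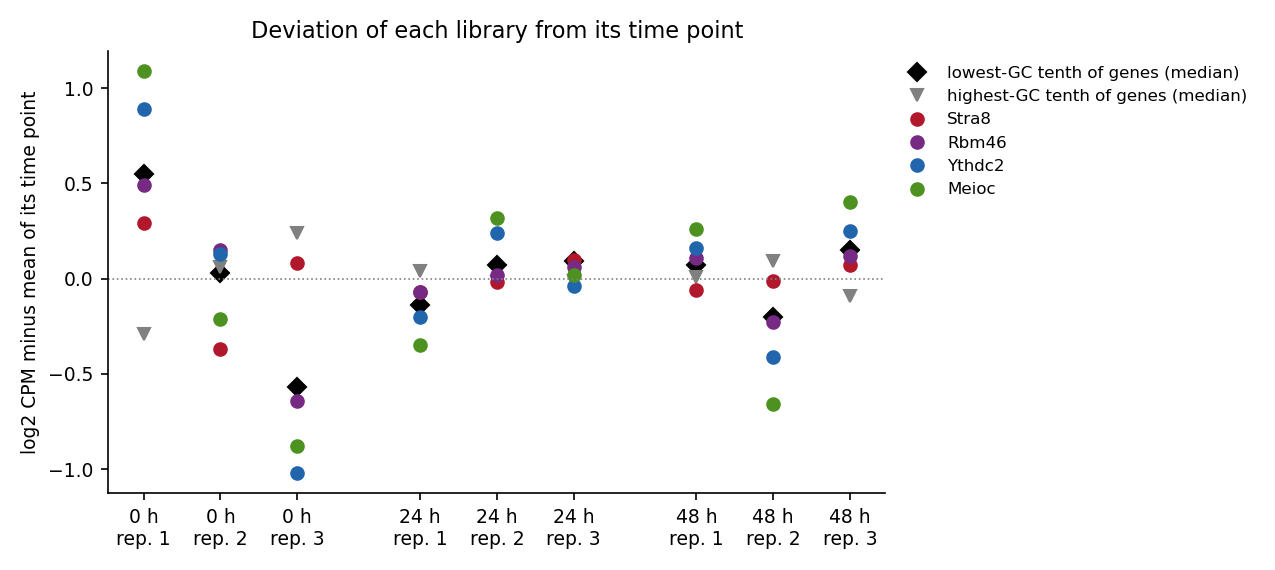
Deviation of each library from the mean of its time point in log2 CPM, for the 4 genes (circles) and as the median of the 1817 genes with the lowest GC content (diamonds) and of as many with the highest (triangles). Points of 1 library share a column, and at 0 h the circles of Meioc, Ythdc2 and Rbm46 run with the diamonds, from 0.55 in replicate 1 to -0.57 in replicate 3, while Stra8 stays between -0.37 and 0.29.

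With offsets for GC content and length in the edgeR fit, the values of Stra8 barely moved, at 8.43 for 24 h and 7.58 for 48 h. Meioc then fell from 0 h to 24 h by 0.95 on the log2 scale (standard error 0.22, adjusted p = 0.0105), a call that was absent without the offsets. Its difference at 48 h became -0.51 (standard error 0.23, adjusted p = 0.111), and that from 24 h to 48 h became 0.44 (standard error 0.15, adjusted p = 0.0635). Rbm46 kept its rise, by 0.91 at 24 h (standard error 0.12, adjusted p = 0.000589) and by 0.90 at 48 h (standard error 0.11, adjusted p = 0.000352), and its difference between the later times was 0.00 (standard error 0.07, adjusted p = 0.984). Ythdc2 kept its rise from 24 h to 48 h, by 0.44 (standard error 0.12, adjusted p = 0.0260), and did not pass against 0 h at 24 h (-0.03, standard error 0.20) or 48 h (0.40, standard error 0.21). With the offsets the calls of Stra8 and Rbm46 against 0 h stayed in place, and Meioc passed at 24 h. No library was left out in a fit with offsets. The dependence of that Meioc call on 0 h replicate 1 was therefore not checked. This fit also moved the median over all genes to -0.08 at 24 h and -0.06 at 48 h, against 0.01 and 0.02 without offsets. Its values against 0 h thus do not reflect GC content and length alone. Whether base composition set the spread at 0 h was not tested beyond these fits.

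**Figure D3:**
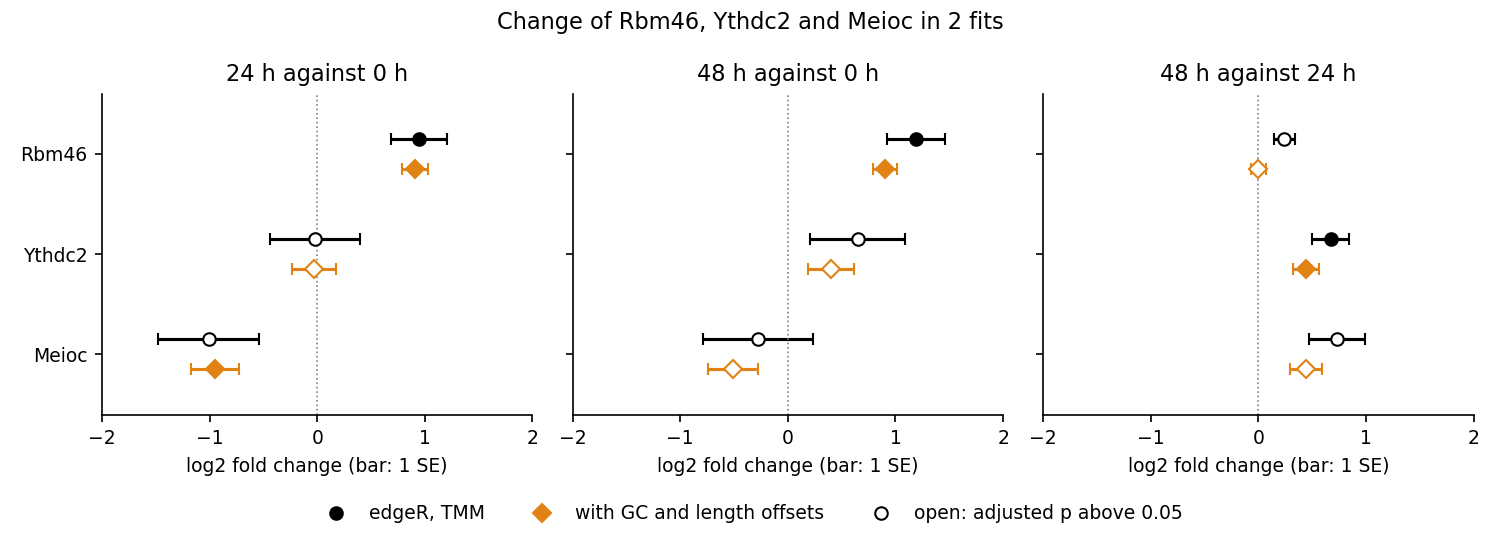
Log2 fold change of Rbm46, Ythdc2 and Meioc in the 3 comparisons, with bars of 1 standard error, from edgeR with TMM normalization (circles) and with added offsets for GC content and length (diamonds). Filled symbols have an adjusted p up to 0.05. For Meioc at 24 h both symbols lie near -1, at -1.01 and -0.95, and the diamond is filled.

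The ratio of 2 members within a library leaves out what shifts both alike. The FPKM ratio of Meioc to Ythdc2 was 3.33, 2.30 and 3.20 before co-culture, 1.35, 1.58 and 1.56 after 24 h, and 1.64, 1.28 and 1.69 after 48 h. Every 0 h library lay above every later library, and 24 h and 48 h overlapped. The mean log2 ratio was lower than at 0 h by 0.96 at 24 h and by 0.93 at 48 h (exact permutation test, two-sided, p = 0.1 for each, which is the smallest that 3 against 3 libraries allow, adjusted p = 0.15 over 9 comparisons of ratios). The FPKM ratio of Rbm46 to Meioc was 1.34, 2.62 and 2.42 before co-culture, 8.66, 5.80 and 7.32 after 24 h, and 4.71, 7.05 and 4.33 after 48 h, again with every 0 h library apart from the later ones. The ratio of Rbm46 to Ythdc2 ran from 4.47 to 7.74 at 0 h, from 9.18 to 11.7 at 24 h and from 7.33 to 9.03 at 48 h, so that the 24 h libraries stood apart from both other groups. The ratios were added after the levels had been seen.

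**Figure D4:**
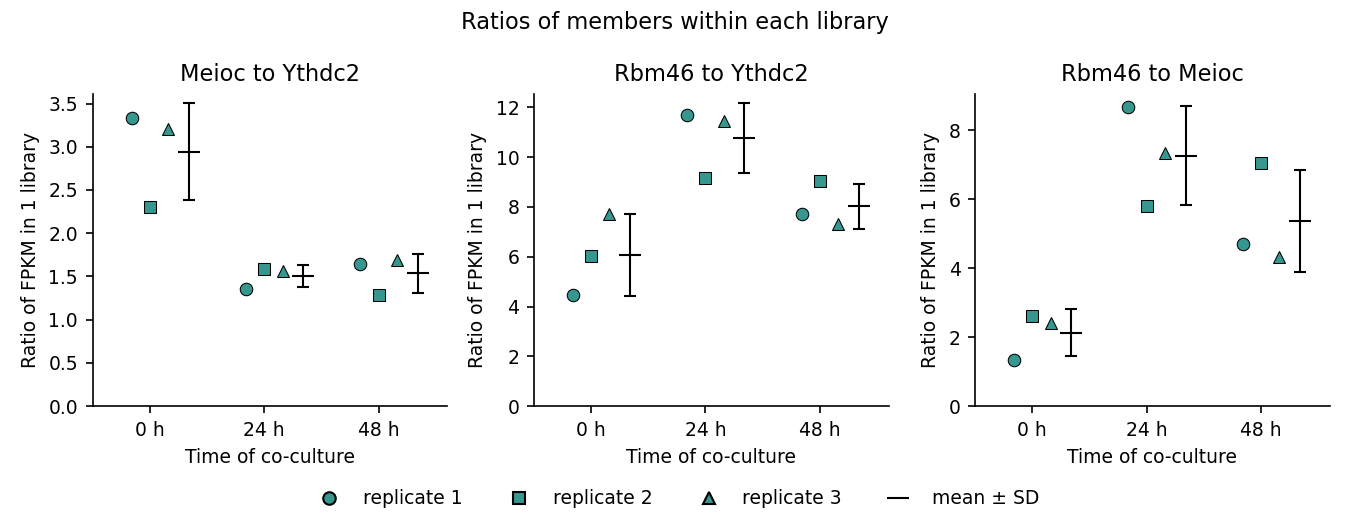
FPKM ratio of Meioc to Ythdc2, Rbm46 to Ythdc2 and Rbm46 to Meioc within each library, against the time of co-culture, with the mean ± SD of 3 libraries as a bar and all axes from 0. The Meioc to Ythdc2 ratio lay between 2.30 and 3.33 at 0 h and between 1.28 and 1.69 in the 6 later libraries.

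Retinoic acid regulators and other genes that set the time of meiotic entry were followed as a list of 35 genes. After 24 h, 13 passed as higher than at 0 h and 8 as lower, with a median log2 fold change of 0.24 against 0.01 over all genes tested. After 48 h, 14 passed as higher and 4 as lower, with a median of 0.12 against 0.02. Of all genes tested, 11.4% passed as higher and 14.2% as lower at 24 h, and 13.0% and 18.5% at 48 h, beside 37.1% and 22.9% of the list at 24 h and 40.0% and 11.4% at 48 h. With the GC and length offsets, 16 rose and 9 fell by 24 h, and 16 rose and 8 fell by 48 h, where the shares of all genes were 13.8% higher and 22.2% lower, then 17.7% and 25.2%. Leaving out 1 library gave 8 (without 0 h replicate 2 or 24 h replicate 1) to 15 higher and 5 (without 24 h replicate 1 or 2) to 9 lower by 24 h, and 9 (without 48 h replicate 2) to 15 higher and 4 to 6 lower by 48 h. Cyp26a1, which degrades retinoic acid and is known to respond to it, rose from 2.13 ± 0.277 CPM to 38.7 ± 1.03 after 24 h (log2 fold change 4.19, adjusted p = 8.72e-06) and fell to 14.2 ± 1.79 by 48 h (log2 fold change from 24 h -1.46, adjusted p = 7.19e-05). Rarb, a receptor gene known to respond in the same way, had 0, 5 and 1 counts before co-culture, 118, 91 and 139 after 24 h and 49, 31 and 44 after 48 h. Stra8, Cyp26a1 and Rarb thus shared the order of 0 h lowest, 24 h highest and 48 h between, with no overlap of libraries in any of the 3 comparisons.

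Other genes of the list took other courses. Aldh1a1, an enzyme that makes retinoic acid, rose from 0.809 ± 0.129 CPM to 21.3 ± 7.23 at 24 h and 34.3 ± 4.50 at 48 h. Aldh1a3, an enzyme of the same kind, fell from 29.1 ± 3.35 CPM to 3.18 ± 0.388 and 1.80 ± 0.378. Rxrg, a receptor partner, fell from 13.2 ± 1.61 CPM to 0.695 ± 0.306 and 0.509 ± 0.119. Nanos2, an RNA-binding repressor of meiosis in male germ cells, fell from 5.30 ± 0.671 CPM to 0.787 ± 0.169 and 0.482 ± 0.201, by 2.72 on the log2 scale at 24 h (adjusted p = 0.000375) and by 3.44 at 48 h (adjusted p = 0.00037). Dazl, an RNA-binding factor that makes germ cells competent for meiosis, stood at 868 ± 466, 729 ± 118 and 767 ± 125 CPM over the 3 time points, with log2 differences from 0 h of -0.24 (adjusted p = 0.698) and -0.18 (adjusted p = 0.757). Mga, which helps to silence meiotic genes, held 219 ± 138 CPM before co-culture, 214 ± 51.4 after 24 h and 387 ± 127 after 48 h. It passed between the later times with a log2 fold change of 0.84 (adjusted p = 0.0376) although the libraries overlapped, in 7 of 15 alternatives and not with the GC and length offsets (0.47, adjusted p = 0.0702). From 0 h to 48 h it did not pass (log2 fold change 0.81, adjusted p = 0.234).

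Aldh1a1 is also made by somatic cells of the testis, and markers of such cells were higher in the sorted co-culture libraries than at 0 h. The summed level of 9 fibroblast and stromal markers was 814 to 977 CPM before co-culture, 2882 to 3304 after 24 h and 3873 to 4179 after 48 h, with none at 0 in any group. The 6 peritubular myoid markers summed to 13.8 to 15.7, 146 to 208 and 263 to 321 CPM, the 10 Sertoli markers to 16.6 to 20.0, 58.1 to 93.0 and 73.4 to 77.0 CPM, and the 7 Leydig markers to 4.59 to 7.00, 28.7 to 44.8 and 29.1 to 37.3 CPM. Fshr, a defining Sertoli receptor, had at most 3 counts in each library, and Lhcgr, a defining Leydig receptor, likewise. Of 8 Sertoli markers tested, 7 passed as higher than at 0 h at each time, with 1 lower at 24 h and 0 at 48 h. Of 4 Leydig markers tested, 3 passed as higher at 24 h and 4 at 48 h, with 0 lower. Of all genes, 11.4% passed as higher and 14.2% as lower at 24 h, and 13.0% and 18.5% at 48 h. Fshr, Rhox8, Hsd3b1, Insl3 and Emcn were at 0 in all 0 h libraries, and Lhcgr was at 0 in all 24 h libraries. The 6 endothelial markers went from 70.2 to 77.2 CPM at 0 h to 20.9 to 24.0 at 48 h, and the 7 macrophage markers from 17.04 to 22.2 to 6.34 to 9.47. The 15 germ cell markers summed to 2604 to 2708, 3284 to 3414 and 2957 to 3100 CPM, with none at 0. That sum includes Kit, which averaged 8.48, 568 and 330 CPM, and the markers did not move together. Their log2 fold changes from 0 h ran from -2.65 to 6.08 at 24 h (median -0.15) and from -3.67 to 5.28 at 48 h (median 0.09). The part of these other cells, and of the feeder fibroblasts at 0 h, in the changes of the 4 genes and of the lists was not tested.

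The m6A machinery was followed through 18 genes of writers, erasers, readers and known partners of YTHDC2. From 0 h to 24 h 2 rose and 3 fell, from 0 h to 48 h 3 rose and 3 fell, and between the later times 5 rose and 1 fell, with medians of -0.12, -0.01 and 0.06 on the log2 scale against 0.01, 0.02 and 0.00 over all genes tested. The shares of the list were 11.1% higher and 16.7% lower at 24 h, beside 11.4% and 14.2% of all genes, and 16.7% each at 48 h, beside 13.0% and 18.5%, so they lay near those of all genes. Between the later times they were 27.8% and 5.56%, beside 8.61% and 12.7%. With the GC and length offsets, 0 rose and 6 fell by 24 h, which is 0.00% and 33.3% of the list, beside 13.8% and 22.2% of all genes. By 48 h 3 rose and 7 fell, which is 16.7% and 38.9%, beside 17.7% and 25.2%. Between the later times 4 rose and 0 fell with them, where 10.9% and 10.7% of all genes passed. Leaving out 1 library gave 0 (without 0 h replicate 2 or any 24 h replicate) to 3 higher and 3 to 5 lower (without 0 h replicate 1 or 3) by 24 h. By 48 h it gave 1 (without 48 h replicate 1) to 6 higher and 3 to 5 lower, both upper counts without 0 h replicate 1. Between the later times it gave 3 (without any 24 h replicate or 48 h replicate 3) to 5 higher, and 0 lower in all but the fit without 48 h replicate 2. Without the offsets, the falls from 0 h were those of the Igf2bp family, readers that are known to stabilise transcripts. Igf2bp1 fell from 560 ± 42.0 CPM to 199 ± 13.1 at 24 h (log2 fold change -1.48, adjusted p = 0.00012) and 209 ± 9.56 at 48 h (log2 fold change -1.42, adjusted p = 8.93e-05), and Igf2bp2 and Igf2bp3 fell in both comparisons as well. Mettl14, the partner of the methyltransferase that writes m6A, rose from 41.9 ± 3.98 CPM to 56.8 ± 2.24 at 24 h (log2 fold change 0.45, adjusted p = 0.0255). This call held in 7 of 15 alternatives and was lost with the offsets (0.26, adjusted p = 0.375). At 48 h Mettl14 stood at 64.7 ± 6.20 CPM and passed against 0 h (log2 fold change 0.63, adjusted p = 0.008975). The alternatives for this later call are not given here.

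Xrn1, an exonuclease that binds YTHDC2, held 81.6 ± 7.15 CPM after 24 h and 110.5 ± 11.4 after 48 h, a rise of 0.43 on the log2 scale (adjusted p = 0.013) without overlap. Against 0 h, where it held 68.3 ± 33.9 CPM, it did not pass at either time. Ythdc2, Xrn1 and the m6A reader Ythdf3 (log2 fold change 0.54, adjusted p = 0.00456) were therefore all higher at 48 h than at 24 h while none of the 3 passed against 0 h. With the GC and length offsets this held for Ythdc2 and Ythdf3, while Xrn1 lost its call between the later times (0.13, adjusted p = 0.129) and passed at 48 h against 0 h (0.36, adjusted p = 0.0419). Rbm15, a protein that guides the methyltransferase, rose from 24 h to 48 h by 0.35 (adjusted p = 0.00762) and from 0 h to 48 h by 0.64 (adjusted p = 0.0119). Its relative Rbm15b fell from 24 h to 48 h by 0.28 (adjusted p = 0.0255), a call that was lost with the offsets (-0.14, adjusted p = 0.146).

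Genes of early meiotic prophase, a class that STRA8 and MEIOSIN are known to raise, were followed through 38 measured genes of a list of 40. By 24 h 3 of them rose and 5 fell, with a median log2 fold change of -0.19 against 0.01 over all genes tested. By 48 h 5 rose and 4 fell, with a median of 0.00 against 0.02. The shares were 7.89% higher and 13.2% lower at 24 h, beside 11.4% and 14.2% of all genes, and 13.2% and 10.5% at 48 h, beside 13.0% and 18.5%, so that none lay clearly above that of all genes. The GC and length offsets gave 6 rises and 7 falls by 24 h, and 7 rises and 6 falls by 48 h. These are 15.8% and 18.4% of the list at 24 h, beside 13.8% higher and 22.2% lower of all genes. At 48 h they are 18.4% and 15.8%, beside 17.7% and 25.2%. Single libraries decided much of the counts without offsets. By 24 h they ran from 2 to 6 rises, with 6 and a median of 0.06 without 0 h replicate 1 and 5 without 0 h replicate 3, and from 0 falls, without 24 h replicate 1, to 8, without 0 h replicate 3, with 1 fall when 0 h replicate 2 or 24 h replicate 2 or 3 was left out. By 48 h they ran from 3 rises (without 48 h replicate 1 or 3) to 7, and from 0 falls (without 0 h replicate 2 or any 48 h replicate) to 5.

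Among those that rose was Rec8, the meiotic cohesin subunit, which went from 22.5 ± 1.60 CPM to 110.8 ± 6.25 after 24 h (log2 fold change 2.31, adjusted p = 2.71e-05) and fell back to 63.6 ± 2.27 at 48 h (-0.81 from 24 h, adjusted p = 0.000187). Its order of time points was that of Stra8. Mei1, which is needed for the DNA breaks of meiosis, rose from 18.5 ± 1.31 CPM to 34.8 ± 3.39 and 38.5 ± 1.79. Sycp3, a protein of the chromosome axis, held 22.5 ± 9.62 CPM before co-culture, 40.9 ± 5.71 after 24 h (adjusted p = 0.0785) and 54.2 ± 4.28 after 48 h. At 48 h it passed (log2 fold change 1.26, adjusted p = 0.0175), in 12 of 15 alternatives. Mei4, another factor of break formation, passed at 48 h as well, at 16.9 ± 1.71 CPM against 8.85 ± 1.45.

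The members of the list that fell were Meiob, Terb2, Mnd1, Brme1 and Dmrtc2 at 24 h. Mnd1, a factor of strand exchange, fell from 9.70 ± 0.744 CPM to 5.35 ± 0.879 at 24 h (log2 fold change -0.85, adjusted p = 0.0116) and stood at 6.51 ± 0.572 at 48 h (-0.57, adjusted p = 0.0299, a call that held in 7 of 15 alternatives). Terb2, which ties telomeres to the nuclear envelope in meiosis, fell from 10.9 ± 4.26 CPM to 4.47 ± 0.223 at 24 h (log2 fold change -1.27, adjusted p = 0.0193, a call that held in 11 of 15 alternatives). From 24 h to 48 h, 5 genes of the list rose and 3 fell, which is 13.2% and 7.89%, beside 8.61% and 12.7% of all genes. Among the rises were Ccnb3 (log2 fold change 0.98, adjusted p = 0.0257), Mei4, Sycp3 and the cohesin gene Rad21l (0.41 for both Mei4 and Rad21l). The offsets gave 5 rises and 3 falls here too, beside 10.9% and 10.7% of all genes. However, Mei4 (0.21, adjusted p = 0.21), Sycp3 (0.10, adjusted p = 0.719) and Rad21l (0.23, adjusted p = 0.198) lost their calls with them. Ccnb3 kept its own (0.78, adjusted p = 0.0246), and did so in 10 of 15 alternatives. With 1 library left out, the rises for this interval ran from 0 (without 24 h replicate 1 or 48 h replicate 3) to 12 (without 48 h replicate 2), with 1 when 24 h replicate 2 or 48 h replicate 1 was left out, and the falls from 1 (without 48 h replicate 1) to 3.

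**Figure D5:**
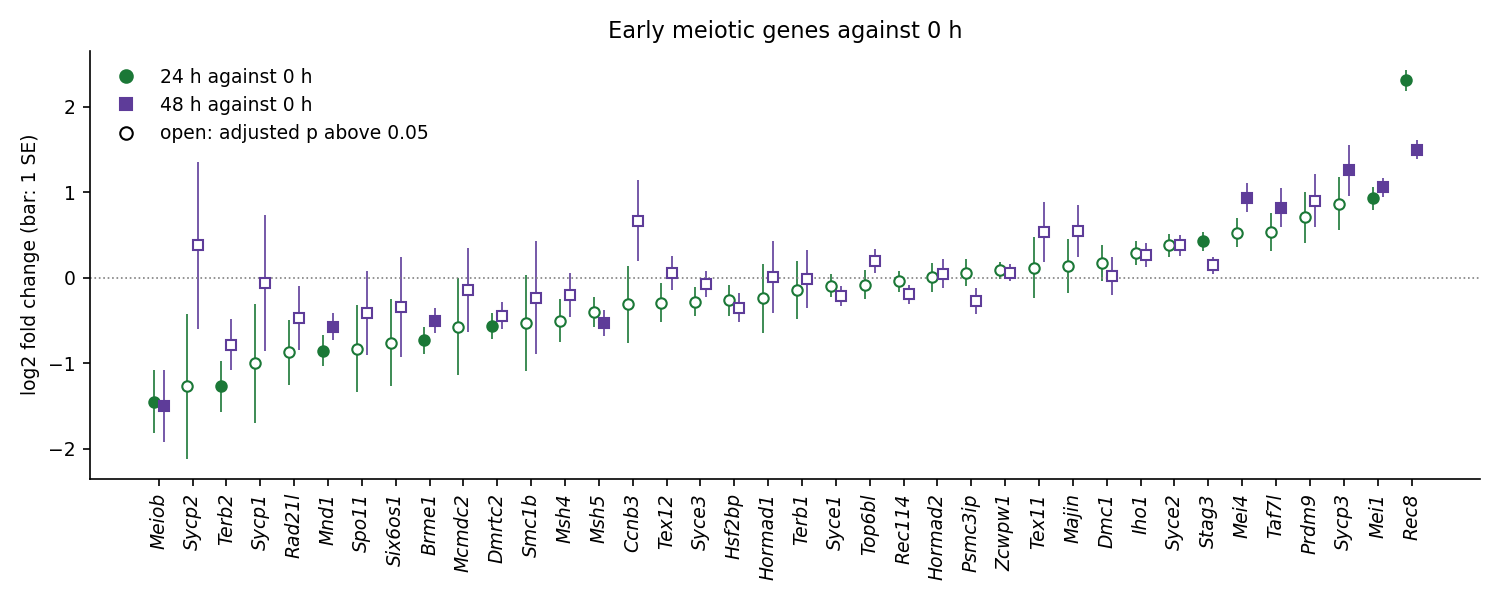
Log2 fold change from 0 h of the 38 measured early meiotic genes, ordered by their value at 24 h, with bars of 1 standard error, for 24 h (circles) and 48 h (squares). Filled symbols have an adjusted p up to 0.05. The list lies on both sides of 0 at each time, with Rec8 at 2.31 and 1.50 on the right and Meiob at -1.45 and -1.50 on the left.

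The complex of MEIOC and YTHDC2 is known for lowering cyclin A2, the cyclin of S phase and mitosis. Ccna2 stood at 171 ± 7.31, 157 ± 4.08 and 180 ± 8.82 CPM over the 3 time points. Its log2 differences were -0.11 (adjusted p = 0.435) and 0.07 (adjusted p = 0.644) from 0 h and 0.19 (adjusted p = 0.0588) from 24 h to 48 h, and the second of these turned to -0.02 with the GC and length offsets. Ccnb1, the main cyclin of mitosis, went from 244 ± 8.89 CPM at 24 h to 332 ± 7.04 at 48 h, a rise of 0.43 on the log2 scale (adjusted p = 0.00136). At 0 h it stood at 263 ± 24.8 CPM. Its log2 differences from 0 h were -0.10 at 24 h (adjusted p = 0.577) and 0.33 at 48 h (adjusted p = 0.0497, just under the threshold). Of the 22 mitotic cyclins and kinases in the list, 2 rose and 7 fell by 24 h, and 2 rose and 7 fell by 48 h. These are 9.09% higher and 31.8% lower at each time, beside 11.4% and 14.2% of all genes at 24 h and 13.0% and 18.5% at 48 h. Between the later times 3 rose and 6 fell, which is 13.6% and 27.3%, beside 8.61% and 12.7% of all genes. The GC and length offsets gave 2 rises and 8 falls by 24 h, beside 13.8% and 22.2% of all genes, and 2 rises and 7 falls by 48 h, beside 17.7% and 25.2%. Between the later times they gave 4 rises and 6 falls, beside 10.9% and 10.7%. With 1 library left out, the rises ran from 1 (without 0 h replicate 2 or any 24 h replicate) to 3 by 24 h and from 1 (without 0 h replicate 2 or any 48 h replicate) to 5 (without 0 h replicate 1) by 48 h, and the falls from 5 to 7 and from 6 to 7. Between the later times the rises ran from 2 to 5 (without 48 h replicate 2), and the falls stayed at 6. The falls were led by genes of the G1 phase. Ccnd1 fell from 186 ± 21.1 CPM to 76.3 ± 1.37 and 37.2 ± 1.21, Ccnd2 from 740 ± 36.6 to 390 ± 11.8 and 182 ± 4.00, and their kinase partner Cdk4 from 297 ± 42.1 to 150 ± 13.8 and 104 ± 6.60. The related kinase Cdk6 rose from 34.2 ± 5.75 CPM to 63.2 ± 4.22 and 86.9 ± 0.839.

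The genes most like each member were taken by Pearson's r of log2 CPM over the 9 libraries, among the 10974 genes that averaged 10 CPM or more at some time point. These r are a description over libraries that fall into 3 time points. The gene most like Stra8 was Kit, the receptor of differentiating spermatogonia, with r = 0.999 and mean levels of 8.48, 568 and 330 CPM over the 3 time points. It was followed by Sertad4, Uchl1 and Cadps2 (r = 0.996 each) and Erg (r = 0.995). Rbm46 was most like Rev1 and Lrrc9 (r = 0.995 each) and Tnrc6a (r = 0.993), whose GC shares of 44.0% to 47.3% lie above the 38.4% of Rbm46. Ythdc2 was most like Hook1 (r = 0.995), Taok1 (r = 0.994) and Rsbn1 (r = 0.993), whose transcripts have a GC share of 40.6% to 41.2%, near the 42.0% of Ythdc2. Meioc was most like Gm6207 (r = 0.983), Sept7 (r = 0.976) and Gm6228 (r = 0.970), with GC shares of 35.7% to 41.2% beside 38.5% for Meioc, and the 5 genes most like Stra8 had 48.5% to 56.8% beside 50.9%. The points of each r share time point and library, base composition included.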

How the data were processed

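Counts per gene of poly-A RNA-seq were deposited for 9 libraries. The authors deposited whole-number counts, without normalization, and the submitters' processing notes name fastp, HISAT2, featureCounts and GRCm38. Versions, annotation and strand setting are not given in the sources used here. Library totals ran from 16825251 to 22201892 counts. GENCODE M21 named 45229 of 46078 genes, and the other 849 held up to 0.121% of a library. Chi-square per degree of freedom between replicates was 7.13 to 81.4, highest at 0 h, and each library was counted as 1 replicate.

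Each comparison used the 6 libraries of its time points. Genes past filterByExpr entered a two-sided quasi-likelihood test in edgeR 4.0.16 (R 4.3.3) after TMM normalization, with Benjamini-Hochberg adjustment over all genes that entered and a threshold of 0.05. CPM are TMM-normalized. FPKM used the union of exons as length. Ratios were compared with exact permutation tests. A gene with at most 3 counts per library is at the limit of what such depth detects, and such limits cover counting error only. By BLAST 2.17.0, 0 bases of the longest transcript of each member matched another gene over 75 bases at 97% identity, and no member shares exonic bases with another gene. The GC and length offsets were natural splines with 5 and 4 degrees of freedom, fitted per library. They were fitted with an intercept to CPM without TMM and added to TMM-scaled library sizes. Both steps thus adjusted the overall scale of a library.

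The members, lists and tests were chosen with earlier results of these data known. Genes named beside the members are Meiosin, Dazl, Xrn1, Rec8, Ccna2 and Ccnb1, up to 4 genes per comparison and list with the strongest log2 fold change among those that passed with 5 CPM or more at a time point, and the 3 genes (5 for Stra8) most like each member in log2 CPM (prior count 2). Meiob, Brme1 and Dmrtc2 were named after their values were seen. The alternatives were DESeq2 1.42.0, DESeq2's size factors, library size alone, all 9 libraries in 1 fit, no filter, a block for the replicate number, the offsets with and without that block, a minimum of 10 counts per library, each library left out, and the longest transcript as length. The scripts were tested on counts simulated for 24 h against 0 h, with the same spread given to all genes. The edgeR fit recovered 66 of 66 changes of 4-fold and 31 of 67 of 2-fold, with 4 false calls. Figures were drawn with matplotlib 3.10.9.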

Additional observations from a re-analysis of the deposited data

How the results depend on the processing

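Stra8 kept its direction and call in all 15 alternatives of each comparison, with log2 fold changes from 8.30 to 8.64, from 7.38 to 7.71 and from -0.96 to -0.85. Leaving out each library in turn gave -0.36 to 0.52, 0.31 to 1.18 and 0.54 to 0.85 for Ythdc2 in 24 h against 0 h, 48 h against 0 h and 48 h against 24 h, -1.32 to -0.25, -0.60 to 0.47 and 0.53 to 0.99 for Meioc, and 0.72 to 1.22, 0.96 to 1.45 and 0.18 to 0.35 for Rbm46. The same step gave 2607 genes called at 24 h without 24 h replicate 2 and 6023 without 0 h replicate 3. At 48 h it gave 3471 without 48 h replicate 1 and 7116 without 0 h replicate 1, and between the later times 1857 without 48 h replicate 1 and 4356 without 48 h replicate 2. Without 0 h replicate 1 Ythdc2 passed at 48 h, and without 48 h replicate 2 Meioc and Rbm46 passed between the later times. The sign of Ythdc2 at 24 h, near 0 in edgeR, turned with library size alone (0.09), at least 10 counts in every library (0.02), the replicate block (0.17) and the block with GC and length offsets (0.01). Meioc passed at 24 h with the offsets (-0.95) and with block and offsets (-0.91), and without the filter Meioc (0.72) and Rbm46 (0.24) passed between the later times. All 9 libraries in 1 fit, which shares the spread of 0 h, gave 1043 genes called for 48 h against 24 h, against 3732 in 6 libraries, and ended the call of Ythdc2 (0.68). Same-numbered libraries deviated together only weakly (correlations from -0.28 to 0.196). With 3 libraries per time point, such correlations cannot decide whether the numbers pair the samples. With the replicate number as a block, Rbm46 at 24 h (1.02, adjusted p = 0.0506) and Ythdc2 between the later times (0.66, and 0.43 with offsets) no longer passed, and 3007, 4013 and 2497 genes were called. With library size alone, the median over all genes stood at 0.12 and 0.13 against 0 h, and the share of calls that were higher went to 57.1% and 52.8%, from 44.5% and 41.2%. With the offsets, the median stood at -0.08 and -0.06 against 0 h, and that share at 38.3% and 41.3%. For 48 h against 24 h the share was 40.4%, and 50.6% with the offsets. With the longest transcript as length, FPKM moved by more than 1 SD for Ythdc2 (4.61 at 24 h, 7.39 at 48 h) and Rbm46 (47.1 and 56.0). Results of the other named genes were followed through the alternatives after the data were seen. This leaves out the changes of Mettl14, Rbm15, Ccnb1 and Mga from 0 h to 48 h and that of Ccnb1 from 0 h to 24 h. Of the results followed, 51 passed, all 51 kept their direction and 34 their call in every alternative. Among 11 that did not pass, signs turned for Ccna2 at 48 h with the offsets (-0.02, also with the block), for Dazl between the later times with the offsets (-0.19, also with the block), and when a library was left out for Dazl (-0.55 to 0.24 at 24 h, -0.49 to 0.29 at 48 h, -0.07 to 0.18 between them), Xrn1 at 24 h (-0.03 to 0.67) and Ythdf3 at 24 h (-0.47 to 0.19). Causes were not tested.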
